A study of Mus musculus with 4 samples.

Results

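The mRNAs of 9 genes, Cox6a2, Rab44, Tspoap1, Acot5, Acnat1, Dnm3, Car12, Pheta2 and Tnni1, were followed through every T cell stage of the mouse thymus, out of 32285 genes counted in 4 single-cell libraries. They had been picked as genes with large changes in thymocytes lacking Tox4, so the comparison of genotypes within DP and single positive (SP) cells is the one that selected them, and their values there are given as a description without a test. The label under which they were grouped, strongly raised in the knockout, did not hold for all of them. In DP cells 7 of the 9 genes were higher in both cKO libraries than in both control libraries, Tnni1 overlapped between the genotypes, and Acnat1 was lower in both cKO libraries.

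The 2 control libraries came from mice with loxP-flanked Tox4 alleles and no Cre (genotype Tox4;F/F), and the 2 cKO libraries from mice with the same alleles and Lck-Cre (Tox4;F/F;Lck+). All were young adult mice of C57BL/6 background compared as sex-matched littermates, and each library held unsorted thymocytes of 1 mouse profiled with the 10x Genomics 3′ assay. Cre was driven by the proximal Lck promoter, so that Tox4 is lost in T lineage cells from the DN3 stage on, and B cells, phagocytes and the earliest DN cells of a cKO mouse keep the gene. Tox4 is a chromatin protein that binds the phosphatase PP1 and acts on RNA polymerase II.

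The files held 57354 barcodes and 204258388 unique molecular identifiers (UMIs), of which 33414 cells were kept, between 5648 and 12027 in a library, with median totals of 2492 to 3445 UMIs. Droplets with over 10% mitochondrial UMIs, which were left out, made up 48.3% and 46.1% of the replicate 1 libraries but 20.6% and 23.1% of the replicate 2 libraries, so this share went with the replicate number and not with genotype. Any 2 libraries shared 36 to 70 barcodes. Cells were clustered and named by marker lists as DN (double negative), DPbla (DP blasts), DPre (DP cells rearranging the TCRα locus), DPsel (DP cells under selection), CD4SP, CD8SP, γδ T-like, B-like and MPS-like (mononuclear phagocytes) cells. The 3 DP stages together are called all DP. Tox4 mRNA itself was counted at 71.3 and 74.5 CPM (UMIs scaled to 1e6 UMIs of the summed class and library) in control and 56.8 and 60.6 CPM in cKO all DP cells, but a 3′ tag lies outside the deleted exons and does not check the deletion.

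Thymocytes begin as DN cells, divide as DP blasts once a TCRβ chain works, rearrange the TCRα locus as small DP cells, and are then selected into CD4 or CD8 SP cells. The 9 genes belong to no common pathway, and several are best known from other tissues. Cox6a2 encodes the heart and skeletal muscle isoform of a subunit of cytochrome c oxidase, and Tnni1 the slow skeletal muscle troponin I. Tspoap1 (also RIMBP1) encodes a scaffold protein of presynaptic active zones, and Dnm3 a dynamin, a GTPase of membrane fission. Rab44 is a large Rab GTPase, Pheta2 an adaptor that binds the phosphatase OCRL on endosomes, and Car12 a membrane carbonic anhydrase. Acot5 is a peroxisomal acyl-CoA thioesterase and Acnat1 a peroxisomal acyl-CoA:amino acid N-acyltransferase.

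The genes lie apart in the genome, on chromosomes 7 (Cox6a2, 128205435 to 128206387, minus strand), 17 (Rab44, 29114145 to 29148980, plus), 11 (Tspoap1, 87760541 to 87785928, plus), 12 (Acot5, 84069325 to 84076020, plus), 4 (Acnat1, 49447105 to 49473912, minus), 9 (Car12, 66713686 to 66766845, plus) and 15 (Pheta2, 82338942 to 82345743, plus), with Dnm3 (161982453 to 162478034, minus) and Tnni1 (135779434 to 135810989, plus) both on chromosome 1. All coordinates are those of GRCm38, the build of the files. Upstream sequences were read for 6 of the 9 genes from RefSeq (GRCm38.p6). Those of the 3 genes raised in DP cells whose start also opens an annotated GENCODE transcript are shown, as the 250 bases before the transcription start, 5′ to 3′ on the gene's own strand, with each E-box (CANNTG) in capitals. The Acot5 stretch is chr12:84069074-84069323 on the plus strand, the Dnm3 stretch chr1:162478035-162478284 on the minus strand and the Car12 stretch chr9:66713436-66713685 on the plus strand.
Acot5: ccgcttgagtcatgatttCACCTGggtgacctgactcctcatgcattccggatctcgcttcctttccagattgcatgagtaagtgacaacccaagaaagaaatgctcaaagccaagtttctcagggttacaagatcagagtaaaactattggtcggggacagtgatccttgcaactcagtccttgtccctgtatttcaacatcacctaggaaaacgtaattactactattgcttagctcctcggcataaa
Dnm3: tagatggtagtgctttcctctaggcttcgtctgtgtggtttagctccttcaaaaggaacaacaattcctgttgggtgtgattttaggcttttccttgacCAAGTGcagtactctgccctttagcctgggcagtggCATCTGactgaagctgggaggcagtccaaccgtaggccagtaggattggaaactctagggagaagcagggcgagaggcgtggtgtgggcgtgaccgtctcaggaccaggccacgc
Car12: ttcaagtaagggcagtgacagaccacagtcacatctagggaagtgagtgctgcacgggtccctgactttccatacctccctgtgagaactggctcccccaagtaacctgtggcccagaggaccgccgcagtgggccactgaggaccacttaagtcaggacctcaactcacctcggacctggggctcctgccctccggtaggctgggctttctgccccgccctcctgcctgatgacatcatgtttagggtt

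These sequences share little. An E-box, searched as CANNTG on both strands, where each match reads the same way, was found once before Acot5 (232 bases from the start), at 2 places before Dnm3 and nowhere before Car12, and 66.0% of 27025 RefSeq promoters hold at least 1 in a stretch of this length. TGTGGT, the core of Runx sites, was present on 1 of the strands before Dnm3 and Car12 and is held by 14.2% of promoters. AGGTCA, the half-site of nuclear receptors, was present before Acot5 and is held by 13.8% of promoters. GGGCGG was found before Car12 (35 bases from the start) and is held by 32.9% of promoters, and TATAAA, held by 13.0%, was in none of the 6 stretches. A match is a run of letters and says nothing of binding.

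In all DP cells Cox6a2 was counted at 1.62 and 1.73 CPM in the control libraries and at 12.2 and 12.4 CPM in the cKO libraries, a log2 fold change of 2.92 ± 0.19 (SE, n = 2 libraries per genotype). The cKO libraries were 7.49 and 7.17 times the control library of the same replicate number, and the groups were far apart beside the distance between libraries of a genotype. DPre cells carried most of it. There Cox6a2 stood at 2.21 and 1.89 CPM in control and 19.2 and 18.6 CPM in cKO cells, while in DPbla cells it went from 1.82 and 2.30 CPM to 8.04 and 9.24 CPM. In DPsel cells 0 and 3 UMIs in control faced 18 and 21 UMIs in cKO libraries, and in CD4SP cells 1 and 0 UMIs faced 5 and 5. No library had a Cox6a2 UMI in CD8SP cells, where 3 UMIs would have been 1.39 to 1.76 CPM.

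The higher Cox6a2 level was spread over few cells. A Cox6a2 UMI was found in 0.597% and 0.573% of control and in 2.95% and 2.54% of cKO all DP cells. With every cell thinned to 1000 UMIs, which left out between 387 and 1061 shallower cells of all classes in a library, the shares were 0.134% and 0.142% against 0.992% and 0.96%. MPS-like cells had a share of 0 to 0.546% without thinning, on at most 1 UMI in a library. Their median totals were 861 to 1714 UMIs against 2392.5 to 3326 UMIs in DP cells. They also held mRNA of thymocytes, so their shares are no independent background for those of DP cells.

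**Figure D1:**
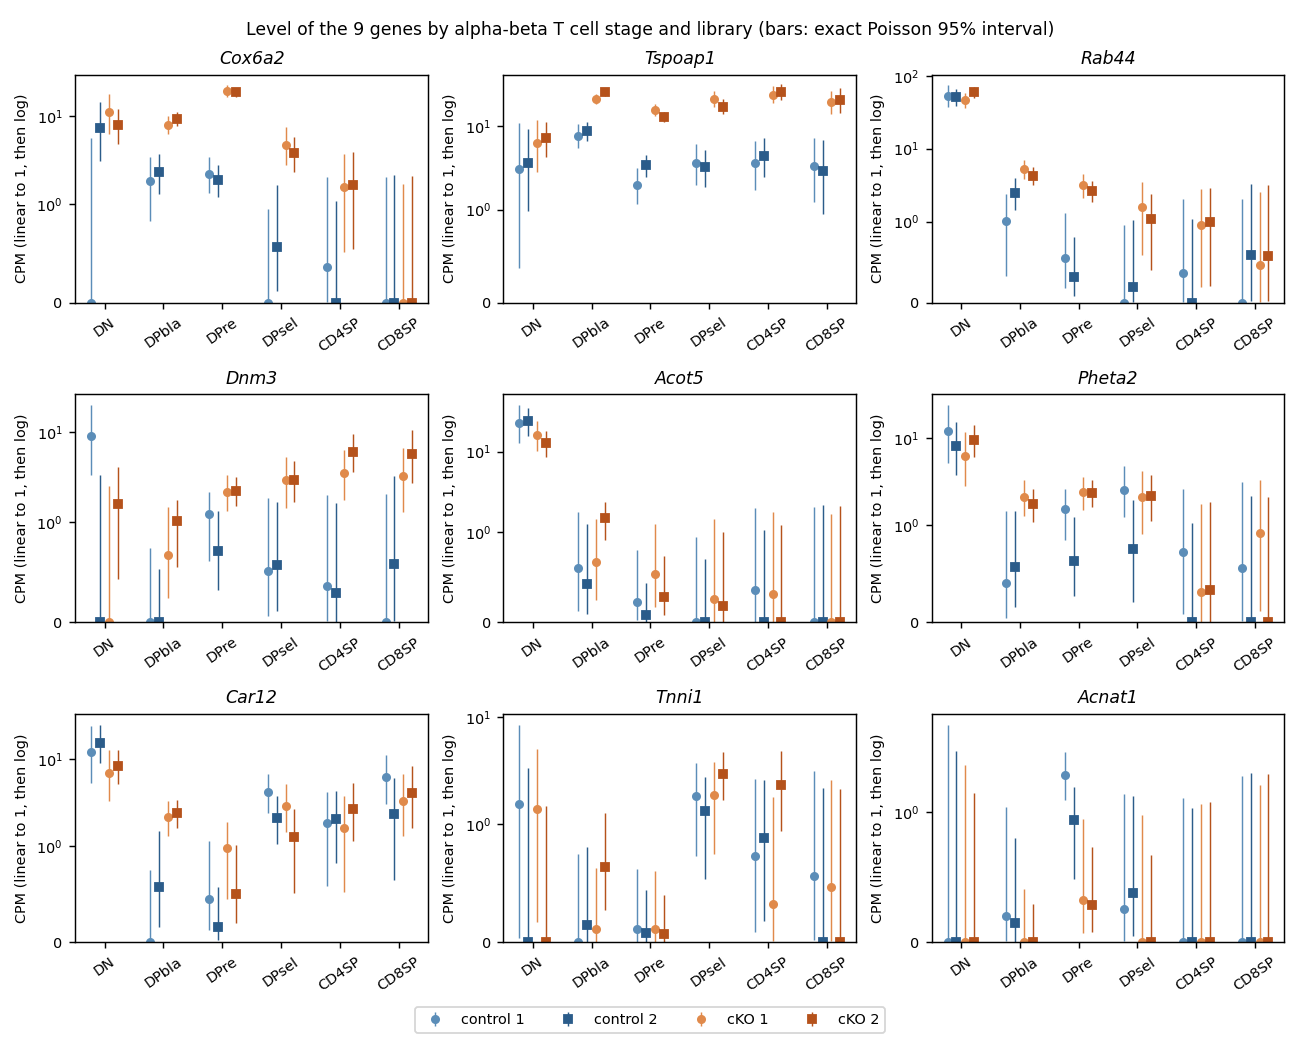
Level of each of the 9 genes (vertical axis, CPM, linear up to 1 and logarithmic above) in 6 αβ T cell stages (horizontal axis), with control libraries in blue, cKO libraries in orange and bars for the exact Poisson 95% interval of each count. Tspoap1 lies higher in both cKO libraries at every stage, Cox6a2 lies higher in both cKO libraries at the DP stages, Rab44, Acot5, Car12 and Pheta2 are highest in DN cells, and Acnat1 is lower in cKO DPre cells.

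Tspoap1 was the gene higher in cKO at every αβ stage. In all DP cells it was counted at 3.92 and 4.86 CPM in control and 18.8 and 18.6 CPM in cKO libraries (log2 fold change 2.13 ± 0.16). Control levels were highest in DPbla cells, at 7.67 and 8.76 CPM, where cKO libraries had 21.1 and 25.7 CPM. In DPre cells 1.99 and 3.38 CPM compared with 15.5 and 12.9 CPM. No control library reached the lower of the cKO libraries at any of these stages. In DPsel cells 3.62 and 3.24 CPM compared with 21.2 and 17.1 CPM. In CD4SP cells the levels were 3.62 and 4.40 against 23.8 and 25.7 CPM, a log2 fold change of 2.57 ± 0.27, and in CD8SP cells 3.35 and 2.93 against 19.4 and 20.6 CPM, a log2 fold change of 2.62 ± 0.40. Among cKO stages from DPre to CD8SP the levels ran between 12.9 and 25.7 CPM. A UMI was found in 1.52% and 1.62% of control and 6.66% and 5.38% of cKO all DP cells, and in 12.3% and 9.52% of cKO CD8SP cells. Thinned to 1000 UMIs, the all DP shares were 0.339% and 0.357% against 1.67% and 1.55%, and the MPS-like share without thinning was 0.538% to 2.37%.

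Rab44 separated the DN stage from the rest. In DN cells it was counted at 53.1 and 50.9 CPM in control and 46.2 and 59.0 CPM in cKO libraries, with a UMI in 32.0% to 34.9% of cells. In all DP cells it was far lower, at 0.56 and 0.883 CPM in control and 3.74 and 3.00 CPM in cKO libraries (log2 fold change 2.22 ± 0.32). Control levels were 1.01 and 2.44 CPM in DPbla and 0.553 and 0.315 CPM in DPre cells, with at most 1 UMI in a control library at each later stage, and the cKO libraries were 6.67 and 3.40 times the control of the same number in all DP. The cKO libraries kept 5.25 and 4.22 CPM in DPbla and 3.15 and 2.65 CPM in DPre cells, above both control libraries at both stages and still far under the DN level. In DPsel cells they held 6 and 6 UMIs and in CD4SP cells 3 and 3, again above both controls, but in CD8SP cells 1 UMI in each cKO library faced 0 and 1 in control, and the groups overlapped. The share of all DP cells with a Rab44 UMI was 0.23% and 0.315% in control and 1.43% and 0.93% in cKO, and 0.0559% and 0.0637% against 0.288% and 0.239% in thinned cells. MPS-like cells had 0 to 0.538%, on at most 1 UMI in a library, too few to set a background for the DP shares.

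Dnm3 was counted on few UMIs. Its all DP level was 0.728 and 0.481 CPM in control and 1.69 and 1.87 CPM in cKO libraries, on 12 to 60 UMIs a library, a log2 difference of 1.64 ± 0.36. In DPbla cells no UMI was counted in either control library and 6 and 13 in the cKO libraries. In DPsel cells 0.517 and 0.571 CPM compared with 2.91 and 2.90 CPM. In CD4SP cells 1 UMI in each control library, 0.362 and 0.293 CPM, faced 11 and 18 UMIs, 3.49 and 6.0 CPM, and in CD8SP cells 0 and 1 UMI faced 7 and 10. In DN cells, with 10 UMIs over all libraries, Dnm3 did not pass the filter on low counts. Without that filter its log2 difference there was -1.70 ± 1.16 (edgeR adjusted p = 0.932), opposite in sign to that in all DP cells. The Dnm3 gene is overlapped by annotated antisense genes, among them Gm38304, and reads can be uncertain where annotations overlap.

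Acot5, Pheta2 and Car12 were counted on few UMIs in DP cells. Acot5 had 5 and 4 UMIs in control and 12 and 24 in cKO all DP cells, 0.28 and 0.16 against 0.547 and 0.75 CPM (log2 fold change 1.67 ± 0.54, and 0.63 without the removal of cells with outlying UMI totals). Its close relative Acot1 read 0.392 and 0.201 against 0.592 and 0.718 CPM, and reads of near-identical members of this family can be split between them. Pheta2 was at 1.46 and 0.642 CPM in control and 2.23 and 2.09 CPM in cKO all DP cells (log2 difference 1.15 ± 0.35), with its clearest difference in DPbla cells, 0.404 and 0.574 against 2.12 and 1.75 CPM. In DPsel cells the Pheta2 libraries overlapped, at 2.58 and 0.761 against 2.12 and 2.18 CPM. Pheta2 shares its strand and part of its position with Smdt1, a subunit gene of the mitochondrial calcium uniporter, which itself read 315 and 308 against 312 and 298 CPM.

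Car12 was higher in cKO cells at 2 of the 3 DP stages. DPbla cells had 0 and 4 UMIs in control and 19 and 30 in cKO libraries, 0 and 0.574 against 2.12 and 2.39 CPM, and without the DPbla cluster of low UMI totals the log2 fold change was 2.71, beside 2.76 with it. In DPre cells 0.443 and 0.157 CPM compared with 0.978 and 0.502 CPM, on 2 to 9 UMIs. In DPsel cells the libraries overlapped, at 4.14 and 2.09 against 2.91 and 1.27 CPM, with each cKO library under the control of the same number (0.704 and 0.607 times). They also overlapped in CD4SP (1.81 and 2.05 against 1.59 and 2.67 CPM) and CD8SP cells (6.14 and 2.35 against 3.24 and 4.01 CPM). Summed over all DP cells Car12 was at 1.12 and 0.682 against 1.78 and 1.37 CPM (log2 fold change 0.88 ± 0.36).

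Acnat1 went the other way. All DP cells held 21 and 15 Acnat1 UMIs in control and 3 and 4 in cKO libraries, 1.18 and 0.602 against 0.137 and 0.125 CPM (log2 fold change -2.63 ± 0.59). Nearly all of them came from DPre cells, with 19 and 12 against 3 and 4 UMIs, and no UMI was counted in DN, CD4SP, CD8SP, γδ T-like, B-like or MPS-like cells of any library. Of all genes tested in all DP cells, 33.2% were lower in both cKO than in both control libraries. Its nearest downstream relative, Acnat2, had no UMI in all DP cells of any library.

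Tnni1 was hardly counted in most αβ stages. All DP cells held 8 and 9 UMIs in control and 9 and 25 in cKO libraries, at 0.448 and 0.361 against 0.41 and 0.781 CPM, and the groups overlapped. CD8SP cells held 1, 0, 1 and 0 UMIs. Most of the all DP UMIs, 6 and 6 in control and 4 and 15 in cKO libraries, came from the DPsel cluster 15, led by Xcl1, Tnfrsf9 and Nr4a1, where the level was 7.19 and 6.46 against 4.88 and 15.1 CPM and the genotypes overlapped. The highest level was in the γδ T-like cluster, with 2 and 4 UMIs in control and 39 and 24 in cKO libraries, 4.98 and 8.11 against 84.7 and 40 CPM. Those counts sat in few cells, 7 and 9 cKO cells with up to 12 UMIs each, against 2 and 3 control cells with at most 2. The cluster as a whole was led by Tcrg-C2, Gzma, Nkg7 and Klrd1, among other genes. Tnni1 had been picked on CD8SP cells of an earlier grouping that may have held cells of this cluster, so this difference is a description as well. The summed level of the 10 MPS markers in this cluster was 167 and 185 CPM in control and 456 and 471 CPM in cKO libraries, with 8 and 7 of the markers detected in control and all 10 in cKO, and the 12 DPbla markers summed to 274 and 339 against 411 and 726 CPM. The cluster's own 6 γδ T markers were lower in cKO, at 1890 and 1450 against 1430 and 1250 CPM, as were the 8 DN markers (1370 and 872 against 828 and 806 CPM), the 7 DPsel markers (583 and 633 against 458 and 546 CPM) and the 7 thymic myoid markers (44.8 and 10.1 against 2.17 and 1.67 CPM, on 1 or 2 markers detected). The part of these markers in the Tnni1 difference was not tested. In this cluster Pheta2 had 4 and 3 against 0 and 4 UMIs, Tspoap1 0 and 6 against 7 and 15, and Cox6a2 none.

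Counted stage by stage over the 9 genes, both cKO libraries lay above both control libraries for 7 genes in both DPbla and DPre cells, for 6 at the DPsel stage, for 4 among CD4SP and for 2 among CD8SP cells, and for 7 in all DP. Over all genes tested this order held for 18.3% (DPbla), 18.1% (DPre), 17.4% (DPsel), 22.1% (CD4SP), 19.6% (CD8SP) and 19.7% (all DP). The contrast is the one the genes were selected on, so nothing is read from the counts. The shares cover only genes that passed the filter on low counts, while the counts cover all 9 genes. The filter was passed by 5 of the 9 genes (DPbla), 6 (DPre), 4 (DPsel), 2 (CD4SP), 1 (CD8SP) and all 9 (all DP). Of these, 5, 5, 3, 2, 1 and 7 were in this order. At least 1 of the 9 genes was detected in 4.29% and 3.37% of control and 12.2% and 10.2% of cKO all DP cells, and at least 2 of them in 0.138% and 0.115% against 1.22% and 0.644%. Cox6a2 and Tspoap1 were found together in 0 and 3 control and 18 and 18 cKO DP cells, where 0.394 and 0.648, and 10.5 and 13.4, cells would hold both if detection of the one were unrelated to the other. The part of differing UMI totals between cells in these counts was not tested.

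**Figure D2:**
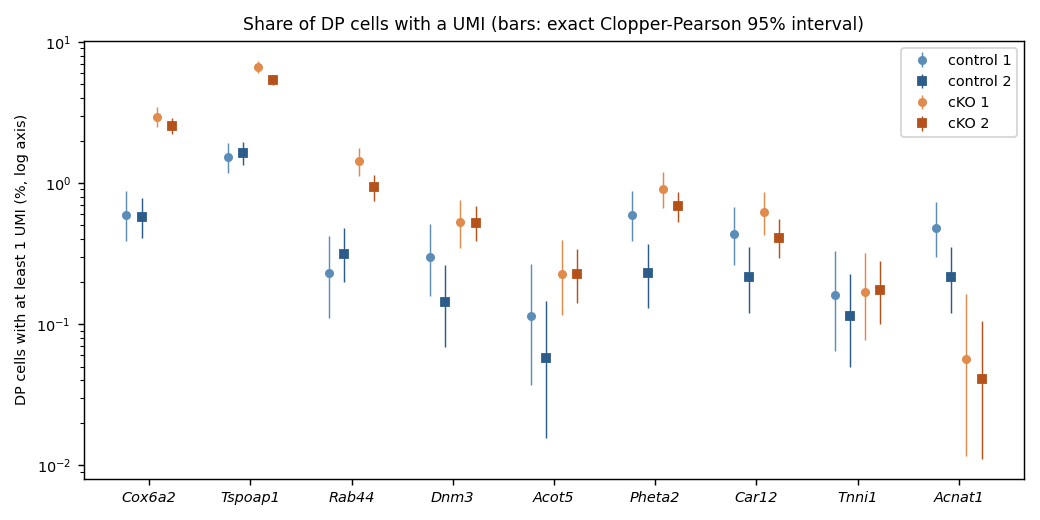
Percent of all DP cells with at least 1 UMI of each gene (vertical axis, logarithmic) in each of the 4 libraries, with bars for the exact Clopper-Pearson 95% interval. Cox6a2 lies at 2.95% and 2.54% in cKO against 0.597% and 0.573% in control libraries, the shares of Car12 overlap, and Acnat1 lies lower in cKO.

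DN cells did not enter the choice of the genes, although they come from the same libraries, and here the differences could be tested. The DN class was not divided further, so it can hold cells from before Tox4 was deleted. By edgeR's quasi-likelihood test on UMI sums of 72 and 111 control and 153 and 304 cKO cells, none of the 5 genes that passed the filter was called higher, and 0.0227% of 8795 genes tested were (2 genes). DESeq2 also called none of the 9 genes higher. Of the 5, 1 gene, Acot5, had an unadjusted edgeR p under 0.05, in the lower direction, as had 7.29% of all genes tested in either direction. Rab44, at its highest level in this stage, had a log2 fold change of 0.07 ± 0.20 with an adjusted p of 0.971. Acot5 read 22.7 and 23.6 CPM in control and 15.9 and 12.7 CPM in cKO DN cells, a log2 fold change of -0.71 ± 0.30 (edgeR adjusted p = 0.652). Car12 read 12.1 and 15.5 against 6.89 and 8.31 CPM (-0.83 ± 0.40, edgeR adjusted p = 0.697). Both genes were thus lower in both cKO libraries in DN cells and higher in both in all DP cells, and neither DN difference passed the test. Of all genes tested in DN cells, 20.6% were lower in both cKO than in both control libraries. The cells named DN differed between genotypes in their markers. The summed level of the 8 DN markers was 3270 and 3000 CPM in control and 2780 and 2790 CPM in cKO DN cells, and that of the 12 DPbla markers 512 and 442 against 942 and 849 CPM, with all markers of both lists detected in each library. The 7 DPre markers summed to 3370 and 3130 against 2760 and 2790 CPM, and the 6 erythroid markers, of which 2 to 4 were detected in a library, to 3.03 and 12.7 against 499 and 19.4 CPM. The part of these markers in the differences of Acot5 and Car12 was not tested. Pheta2, at 12.1 and 8.18 against 6.20 and 9.50 CPM, overlapped.

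Cox6a2 and Tspoap1 were the 2 of 9 genes above both control libraries in DN cells, an order found for 16.6% of all genes tested. That share covers genes that passed the filter, which of the 2 only Cox6a2 did. Cox6a2 had 0 and 8 UMIs in control and 16 and 20 in cKO DN cells, 0 and 7.27 against 11 and 7.91 CPM (log2 fold change 1.04 ± 0.67, edgeR adjusted p = 0.799). The 72 cells of control 1 held no UMI, and the value was 0.34 without control 1 and 0.11 without the removal of UMI outliers. Without control 2 the control side was at 0 and no fold is given. Tspoap1 had 2 and 4 against 9 and 18 UMIs, 3.03 and 3.64 against 6.20 and 7.12 CPM, and did not pass the filter. In the edgeR fit without a filter, over 15026 genes, its log2 fold change was 1.02 ± 0.64 with an adjusted p of 0.932, so the difference in DN cells did not pass the test.

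Outside the T lineage, MPS-like cells were the class with most cells (186 and 183 control, 419 and 338 cKO). None of the 9 genes passed the filter there. No gene of 6147 tested was called higher (0%) by edgeR, 123 had an unadjusted p under 0.05, and DESeq2 called none of the 9 genes. Cox6a2 had 0 and 1 UMI in control and 1 and 1 in cKO MPS-like cells. Tspoap1 had 1 and 2 against 4 and 8 UMIs, 3.46 and 4.80 against 8.07 and 12.4 CPM, the one gene of the 9 with both cKO libraries above both control libraries in this class. This order held for 11.8% of all genes tested there, a set without Tspoap1. Without a filter the log2 fold change of Tspoap1 there was 1.31 ± 0.97 (edgeR adjusted p = 0.991). The other 7 genes had at most 2 UMIs in any library.

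MPS-like cells also held mRNA of thymocytes. Cd8b1, the CD8β chain gene of DP and CD8 cells, stood in them at 47.0% and 80.8% of its DP level in control and at 37.5% and 77.1% in cKO libraries. If Tspoap1 were present in the same proportion to Cd8b1 as in DP cells, 2.16 UMIs in control and 12.8 in cKO MPS-like cells would be counted, and 3 (exact Poisson 95% interval 0.619 to 8.77) and 12 (6.20 to 21.0) were. Cox6a2 would have 8.43 UMIs in cKO at that proportion and had 2 (0.242 to 7.22). The Tspoap1 counts in MPS-like cells were thus at the level of this proportion, and the Cox6a2 count was under it. In B-like cells, 39 and 42 control and 33 and 52 cKO cells, Tspoap1 had 0 and 0 against 4 and 3 UMIs. At the Cd8b1 proportion 1.86 would be counted in the cKO cells, and the 7 observed have an interval of 2.81 to 14.4. These intervals cover counting error only, and whether a few B-like droplets also held a T cell was not tested.

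**Figure D3:**
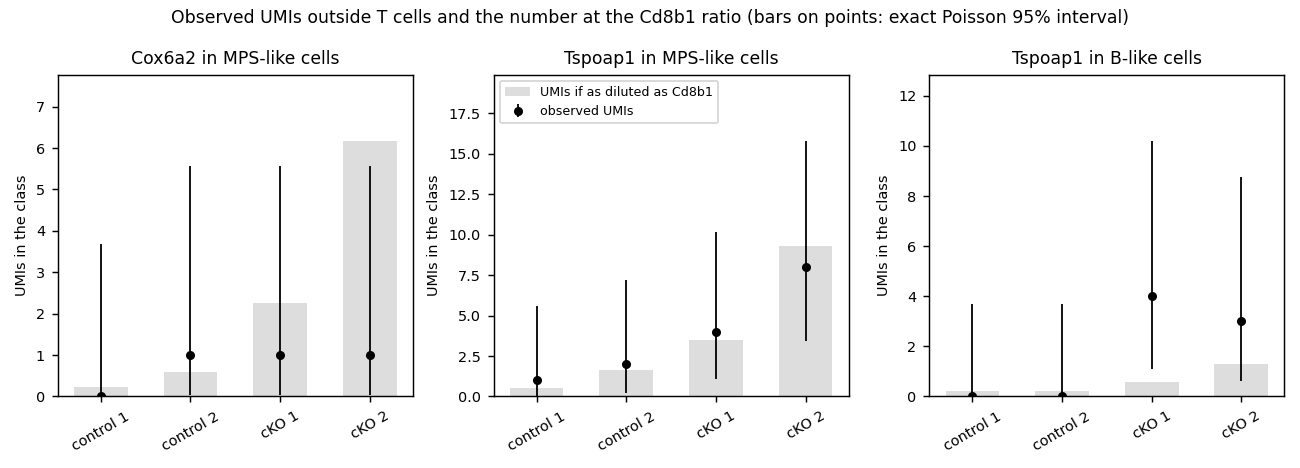
UMIs of Cox6a2 and Tspoap1 in MPS-like and of Tspoap1 in B-like cells (points with exact Poisson 95% interval) in the 4 libraries, beside the number that would be counted if the gene stood to Cd8b1 as in DP cells (grey bars). The intervals of Tspoap1 in MPS-like cells hold the grey bar in all 4 libraries, Cox6a2 in cKO 2 lies under its bar with 1 UMI against 6.17, and in B-like cells the 4 and 3 UMIs of the cKO libraries lie above bars of 0.576 and 1.28, although the interval of cKO 2 (0.619 to 8.77) holds its bar.

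Cox6a2 was also counted outside the named classes. A cluster of 46 cells led by Siglech, Klk1, Tyrobp and Cox6a2, which stayed unnamed since it scored on more than 1 list, held 30.1% of all Cox6a2 UMIs in kept cells. Siglech and Klk1 are on the list of plasmacytoid dendritic cell markers. In this cluster Cox6a2 was counted at 1660 and 378 CPM in 10 and 15 control cells and at 774 and 1480 CPM in 5 and 16 cKO cells, and the genotypes overlapped. Since Cox6a2 led the cluster, its height there is no finding, and only the lack of an order by genotype is given. In all DP cells Siglech had 2 and 5 UMIs in control and 5 and 12 in cKO libraries, and Klk1 4 and 3 against 10 and 8, beside 29 and 43 against 267 and 396 UMIs of Cox6a2. The summed level of the 7 listed markers, all detected in all DP cells of each library, was 1340 and 1360 CPM in control and 1130 and 1270 CPM in cKO. Siglech and Klk1 gave little of this sum. Most came from other genes of the list, so the sum is no measure of plasmacytoid dendritic cell mRNA in DP cells. Of the other 2 lists for cells known to express a member, the 6 mast cell and basophil markers summed to at most 0.125 CPM and the 7 thymic myoid markers to 0.401 to 1.01 CPM in all DP cells. Rab44 was also counted in the 20 neutrophil-like cells, with 1, 4, 7 and 0 UMIs in the 4 libraries, which the libraries' 1, 5, 10 and 4 such cells leave too few to compare.

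**Figure D4:**
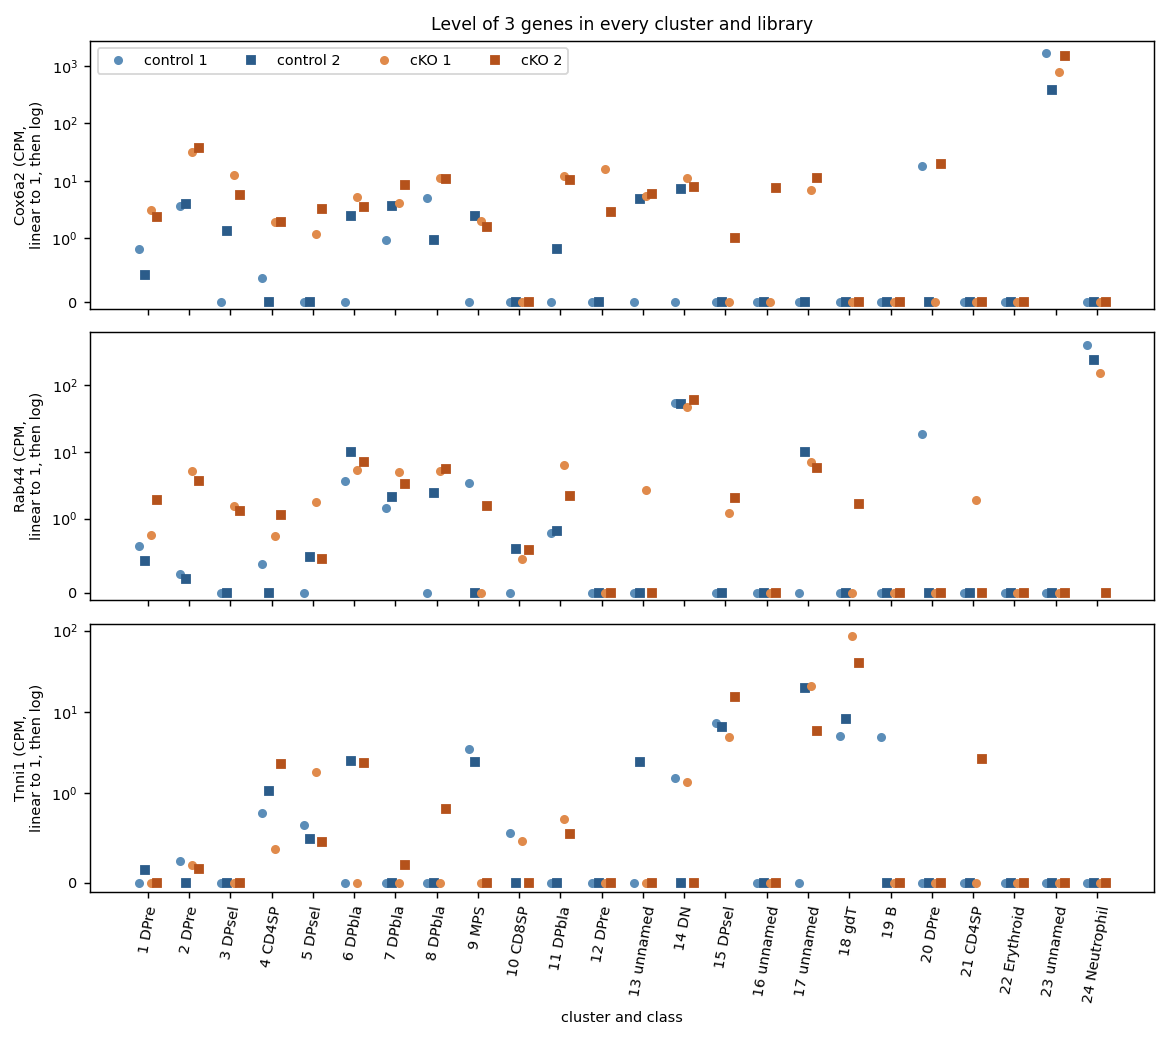
Level of Cox6a2, Rab44 and Tnni1 (vertical axes, CPM, linear up to 1 and logarithmic above) in each of the 24 clusters (horizontal axis, number and class) and 4 libraries. Cox6a2 is highest in unnamed cluster 23 with both genotypes mixed, Rab44 in the DN cluster 14 and neutrophil-like cluster 24, and Tnni1 in the γδ T-like cluster 18, where both cKO libraries lie above both control libraries.

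The genes that flank the 9 were not part of the choice as such. Of 36 neighbours, the 2 nearest genes on each side, 20 passed the filter in all DP cells and 3 were called by edgeR, 2 higher and 1 lower, where 6.73% of all 12839 genes tested were called, 4.12% of them higher and 2.61% lower. The median log2 fold change of the 20 was 0.03, beside -0.004 over all genes. Cdkn1a, the cell cycle inhibitor p21, lies 13417 bases upstream of Rab44 on the same strand and read 2.52 and 2.13 CPM in control and 6.02 and 6.56 CPM in cKO libraries (log2 fold change 1.5 ± 0.21, edgeR adjusted p = 0.000937). Phlda3, an inhibitor of Akt, lies 10297 bases upstream of Tnni1 and read 5.38 and 5.06 against 10.3 and 10.1 CPM (1.02 ± 0.16, edgeR adjusted p = 0.00201). Both are known targets of p53. Their libraries did not overlap, as in 19.7% of all genes for this order.

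Mir142hg, the host transcript of miR-142, lies 3270 bases upstream of Tspoap1 on the same strand and read 118 and 118 CPM in control and 72.2 and 68.0 CPM in cKO libraries (log2 fold change -0.70 ± 0.09, edgeR adjusted p = 0.000706). It was thus lower where Tspoap1 was higher. Supt4a, on the other side of Mir142hg, read 392 and 377 against 329 and 318 CPM (-0.19 ± 0.09, edgeR adjusted p = 0.206). Itgad, an integrin gene on the opposite strand that spans Cox6a2, had 6 and 4 against 5 and 14 UMIs and did not pass the filter. Of the other nearest genes, Acot6 beside Acot5, Aph1b and Usp3 beside Car12, Eef1aknmt beside Dnm3, Smdt1 beside Pheta2, Cpne5 beside Rab44 and Lad1 beside Tnni1 were tested and not called. Acot3 beside Acot5, Baat and Acnat2 beside Acnat1, Gm38304 beside Dnm3, Gm44850 beside Cox6a2 and Mpo beside Tspoap1 did not pass the filter and were not tested.

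All DP cells are a sum of 3 stages, and the stages did not hold the same share of it in the 2 genotypes. DPbla cells held 27.7% and 27.9% of the UMIs of all DP cells in control and 40.8% and 39.2% in cKO libraries, DPre cells 50.6% and 51.0% against 42.0% and 43.6%, and DPsel cells 21.7% and 21.1% against 17.2% and 17.2%. The summed level of the 12 DPbla markers in all DP cells was 2140 and 2030 CPM in control and 2900 and 2660 CPM in cKO, that of the 7 DPre markers 4440 and 4080 against 3770 and 3880 CPM, and that of the 7 DPsel markers 975 and 878 against 694 and 658 CPM. Markers of other cells moved in both directions in all DP cells. The 7 mTEC markers were lower in cKO, at 36.4 and 27.4 against 24.6 and 26.1 CPM. The plasmacytoid dendritic cell list was lower too, and the neutrophil list overlapped. Several lists were higher in cKO, among them the erythroid and MPS lists. The 6 erythroid markers, of which 4 to 6 were detected in a library, summed to 19.6 and 14.1 against 41.6 and 32.3 CPM and the 10 MPS markers, all detected, to 81.8 and 72.7 against 91.3 and 99.4 CPM, and their part in the differences in all DP cells was not tested. Within the stages, edgeR called Cdkn1a higher in DPbla (1.14, adjusted p = 0.0422) and DPre cells (1.43, adjusted p = 0.0331), and Phlda3 higher in DPre cells (1.13, adjusted p = 0.0224). Mir142hg was called lower by edgeR in DPbla (-0.77, adjusted p = 0.00858) and DPre cells (-0.54, adjusted p = 0.0141). In DPbla cells the erythroid markers summed to 13.5 and 9.19 CPM in control and 17.3 and 19.8 CPM in cKO. The MPS markers there summed to 68.2 and 57.0 against 71.3 and 69.7 CPM. The DPre markers were lower, at 3270 and 2930 against 2700 and 2660 CPM, as were the DPbla, DPsel and γδ T lists. The part of these markers in the DPbla calls was not tested. Within DPre cells too several marker lists of other stages and cells were higher in cKO, among them the B, CD4SP and CD8SP lists. Not all were. The 7 mTEC markers were lower in cKO (47.6 and 37.0 against 34.0 and 34.1 CPM), and the DN, DPsel, γδ T and neutrophil lists overlapped. The 12 DPbla markers summed to 321 and 227 CPM in control and 428 and 375 CPM in cKO, the 10 MPS markers to 89.8 and 79.6 against 112 and 122 CPM and the 6 erythroid markers to 20.5 and 16.4 against 27.9 and 42.6 CPM, and their part in the calls at this stage was not tested. At the stages where they were not called, the cKO libraries of Cdkn1a, Phlda3 and Mir142hg also lay on the same side of both control libraries.

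**Figure D5:**
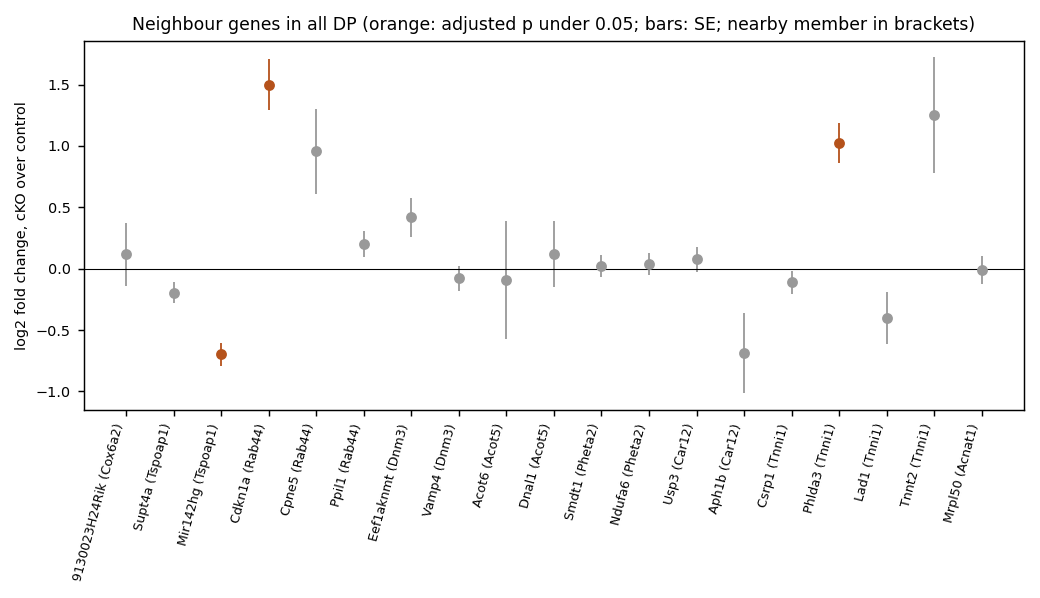
Log2 fold change, cKO over control in all DP cells, with its SE, of the neighbour genes that passed the filter except 1 that is not shown, the nearby gene of the 9 in brackets. Cdkn1a (1.5) and Phlda3 (1.02) lie above and Mir142hg (-0.70) below the line at 0 as the 3 called genes.

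The list of relatives of the 9 genes held 38 family genes. Of these 23 were tested in all DP cells and 2 were called, Acot7 higher and Car2 lower, where 6.73% of all genes tested were called. Acot7, a cytosolic acyl-CoA thioesterase, read 28.9 and 33.3 CPM in control and 42.0 and 41.0 CPM in cKO libraries (log2 fold change 0.46 ± 0.11, edgeR adjusted p = 0.0211), and the call was lost without control 1 (0.35, edgeR adjusted p = 0.237), at the 5% mitochondrial limit (0.43, edgeR adjusted p = 0.18), without the removal of UMI outliers (0.39, edgeR adjusted p = 0.0804) and in thinned cells (0.55, edgeR adjusted p = 0.0796). Within the stages Acot7 was called in DPre cells, at 8.41 and 8.34 against 16.3 and 14.1 CPM (0.89 ± 0.18, edgeR adjusted p = 0.0161), but not in DPbla cells, where its level was highest, at 60.8 and 75.7 against 70.0 and 71.3 CPM (0.09, edgeR adjusted p = 0.795), nor in DPsel cells (0.10, edgeR adjusted p = 0.915). The DPbla markers, which were higher in cKO DPre cells, moved with this call, and their part in it was not tested. Car2, a cytosolic carbonic anhydrase, read 19.0 and 26.4 against 7.61 and 8.0 CPM (-1.49 ± 0.16, edgeR adjusted p = 0.000188), and was called lower in DPre cells (-1.36, edgeR adjusted p = 0.000548). Cox6a1, the isoform of the same subunit that most tissues use, read 348 and 323 against 373 and 339 CPM and overlapped, with an edgeR adjusted p of 0.418. The median log2 fold change of the 23 was -0.04.

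Of the pathways around the genes, none of 15 tested subunits of complex IV (of 16 listed), none of 23 genes of peroxisomal and acyl-CoA metabolism (of 28) and none of 6 striated muscle genes (of 17) was called by edgeR in all DP cells, and of 12 tested genes of dynamin and endocytosis (of 15) 1 was called, Pacsin1, lower. Over all genes tested 6.73% were called, and nothing is read from these short lists. Pacsin1, a membrane-bending partner of dynamin, read 24.7 and 23.6 CPM in control and 18.0 and 16.6 CPM in cKO libraries (log2 fold change -0.43 ± 0.12, edgeR adjusted p = 0.0431). This call was lost without control 1, control 2 or cKO 2, with adjusted p values of 0.13, 0.0755 and 0.158 by edgeR. Pacsin1 was called within none of the stages, with edgeR adjusted p values of 0.745 in DPbla, 0.772 in DPre and 0.733 in DPsel cells, and its level was highest in DPsel cells, at 91.8 and 89.3 against 81.0 and 75.3 CPM. The median log2 fold changes of the 4 lists were 0.15 for complex IV, -0.09 for peroxisomal genes, 0.14 for striated muscle genes and -0.16 for dynamin and endocytosis.

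Across the 24 sums of 6 stages and 4 libraries, the genes whose log2(CPM + 1) ran most like each of the 9 were Katnal1 and Col27a1 for Cox6a2 (Pearson r = 0.843 and 0.842), Dync2h1 and Phlda3 for Tspoap1 (0.721 and 0.694), Notch1 and Paqr5 for Rab44 (0.975 and 0.966), and Mfsd13a and Esm1 for Acot5 (0.988 and 0.988). For the other genes they were Noc2l and Wdr43 for Car12 (0.933 and 0.912), Renbp and Stard10 for Pheta2 (0.93 and 0.927), Tex10 and mt-Nd4l for Dnm3 (0.768 and 0.702), Chst2 and Faap100 for Tnni1 (0.783 and 0.77) and Rnasek and Chmp5 for Acnat1 (0.879 and 0.853). The search ran over 10776 genes, the sums of a library share its depth, and these values are a description.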

How the data were processed

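The deposited files held UMI counts per gene and barcode, which the authors made with Cell Ranger 6.1.1 on GRCm38 (mm10) with default settings. Cells with at least 200 genes and at most 10% mitochondrial UMIs were kept, without the 2.5% of each library at either end of UMI totals and the 5% with the highest Scrublet doublet score. They were clustered (3000 variable genes, 30 components, 20 neighbours, Leiden resolution 1) and named by marker lists, so names are rebuilt and not the authors'. UMI counts were summed per library and class, and genotypes compared with edgeR 4.0.16 (R 4.3.3; quasi-likelihood, TMM, filterByExpr, Benjamini-Hochberg over all genes tested), called at an adjusted p under 0.05. DESeq2 1.42.0 was an alternative. The fit was tested on simulated data. Named beside the 9 genes are neighbours, family and pathway genes called in all DP, the nearest neighbours, and the 2 genes most alike to each. Supt4a, Cox6a1 and Acot1 are outside this rule and were chosen after their values were seen, as were genes that led a cluster. Members and lists were chosen with earlier results of these data known. 1 neighbour gene is not reported here.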

Additional observations from a re-analysis of the deposited data

Results flagged for a closer look

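Acot5 and Car12 lay on opposite sides of the control libraries in DN and in DP cells. The log2 fold change of Acot5 was -0.71 in DN and 1.67 in all DP cells, and that of Car12 was -0.83 in DN and 0.88 in all DP cells. For both genes every cKO library lay below both control libraries in DN cells and above both in all DP cells, and the difference between the stages was not tested. Of all genes tested, 20.6% lay below in this way in DN cells and 19.7% above in all DP cells. Neither DN difference passed edgeR's test (adjusted p = 0.652 and 0.697), and the DP side is the comparison the genes were selected on, so it has no test.

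The droplets with over 10% mitochondrial UMIs, which were left out of the classes, also held Cox6a2, Tspoap1 and Dnm3 at higher levels in both cKO libraries, with exact Poisson 95% intervals above those of both control libraries. These intervals cover counting error only. The mean CPM of the cKO libraries was 6.8 times that of the control libraries for Cox6a2 (1.96 and 1.54 against 10.1 and 13.7 CPM). It was 5.14 times for Tspoap1 (4.90 and 5.41 against 27.7 and 25.3 CPM) and 5.31 times for Dnm3 (0.736 and 0.515 against 2.85 and 3.79 CPM). These droplets come from the same 4 libraries, on the comparison of genotypes that selected the genes, so the values are a description with no test.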

How the results depend on the processing

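None of the 9 genes was called higher in DN or in MPS-like cells under any alternative that could be run. In DN cells the 5% mitochondrial limit could not be fitted, as libraries had under 30 DN cells. The count of neighbours called in all DP was 3 and became 5 with the replicate block, and between 2 and 3 otherwise. The count of family genes called was 2 and became 7 with the replicate block, and 1 with the 5% mitochondrial limit, without removal of UMI outliers, and with cells thinned to 1000 UMIs, where Acot7 lost its call and Car2 kept it. Leaving out 1 library gave 3 neighbours and 2 to 3 family genes, and 7 to 8 of the 9 genes higher in both cKO libraries in all DP, a count that was 5 in cells thinned to 1000 UMIs. The study describes pairs of control and cKO mice and used littermates, but neither its text nor the labels say that a replicate number marks a pair, a litter or a batch. The deviations of same-numbered libraries correlated at 0.308 over 12839 genes in all DP, the share of droplets over 10% mitochondrial also went with the number, and the replicate block moved the calls there from 864 to 2103. In DN cells the log2 fold change of Rab44, 0.07, ran from -0.134 to 0.218 when 1 library was left out and was -0.017 with doublet candidates kept, and that of Pheta2, -0.22, ran from -0.614 to 0.015 when 1 library was left out (the cause was not tested). Cox6a2 in DN went from 1.04 to 0.11 without removal of UMI outliers. In all DP each of the 9 genes kept its direction under the alternatives that gave it a value, with ranges of 2.73 to 3.17 for Cox6a2, 1.98 to 2.54 for Tspoap1, 1.6 to 2.63 for Rab44, 1.23 to 1.91 for Dnm3, 0.63 to 2.04 for Acot5, 0.62 to 1.77 for Pheta2, 0.53 to 1.22 for Car12, 0.29 to 1.0 for Tnni1 and -3.07 to -2.14 for Acnat1. No value could be fitted in thinned cells for Acot5, Acnat1, Dnm3, Car12 and Tnni1, at the 5% mitochondrial limit for Acot5, Acnat1, Dnm3 and Tnni1, or for Tnni1 at clustering resolution 0.5 and without cKO 2. Within replicate 1 the cKO library of Tnni1 was 0.915 times the control. The calls of Cdkn1a at the 5% mitochondrial limit (1.29, edgeR adjusted p = 0.0603) and of Phlda3 in thinned cells (1.01, edgeR adjusted p = 0.0535) were lost, and Pacsin1 was not called under 10 of the alternatives. In MPS-like cells no member passed the filter, and without it none was called. The 2 DPbla alternatives were added after seeing the data. The SE of the log2 fold changes of the 5 genes tested in DN cells, between 0.20 and 0.67, bounds how small a difference these libraries could show there.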
